A study of Mus musculus with 46 samples.

Results

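Mitochondrial ribosomal proteins are encoded in the nucleus, made by cytosolic ribosomes and imported into mitochondria, where they assemble with mitochondrial rRNA into the mitoribosome. This ribosome translates the few proteins encoded by mitochondrial DNA, all of them subunits of the respiratory chain and ATP synthase. mTORC1, the kinase complex that torin 1 inhibits, promotes cytosolic translation and is known to promote the expression of nuclear-encoded mitochondrial genes, whereas the cytosolic ribosomal protein mRNAs carry a 5′ terminal oligopyrimidine tract and are the best known targets of its translational control. The genes described here are the 78 genes of the deposited tables whose symbols start with Mrpl or Mrps and a digit, out of 9857 symbols that stood on 1 entry in the tables of both treatments. Of these, 49 carried large subunit (Mrpl) and 29 small subunit (Mrps) symbols, and all 78 passed the count filter in every comparison. The symbols do not follow the complex in every case, since the proteins of Mrps18a and Mrps30 sit in the large subunit of mammals and Mrps36 is known as a component of the 2-oxoglutarate dehydrogenase complex.

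Ribosome footprints and poly(A) RNA had been sequenced from the same 23 cultures of EPP2 cells, a murine pancreatic cancer line, to ask how tRNA wobble modification and mTORC1 act together on codon-specific translation. The line was a single cell-derived clone with doxycycline-inducible Cas9, so that all groups share this cassette and 1 clonal origin, and the sample protocol gives 300 ng/ml doxycycline from 4 days before the treatment for every library. Torin 1, which blocks the mTOR kinase, was given at 300 nM for 2 h, with DMSO as the vehicle. There were 6 control cultures with DMSO, 6 control cultures with torin 1, and 5 and 6 of the same with induced knockout of Ctu1 (Ctu1 iKO). Ctu1 is the catalytic subunit of the thiolase that adds sulfur to the wobble uridine of the tRNAs for lysine, glutamine and glutamic acid, and AAA is the lysine codon read by such a tRNA. Controls in the study carried guide RNAs against non-coding regions or received no doxycycline. The protocol of all 46 libraries gives doxycycline, also for the controls, and their guides are not given in the labels.

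Footprint libraries held between 4602092 and 52907878 counts and RNA-seq libraries between 129881946 and 325494304. How many of the numbered cultures were independent experiments is given differently in the study's methods and legends, so every p-value rests on their independence. Ctu1, listed in the DMSO tables only, had 1.58 to 3.43 footprint counts per 1000000 of the table's total (CPM) in control and 1.3 to 2.28 in Ctu1 iKO cultures (exact permutation test, two-sided, p = 0.0563). Its transcript level was 4.62 ± 0.12 CPM in control and 4.63 ± 0.302 in Ctu1 iKO (SD, n = 3, exact p = 0.8). This does not test a Cas9 lesion, since an edited transcript can still be counted. Reads across the edited site were not examined. Of the epithelial markers, Krt8, Krt18 and Krt19 were listed but not Epcam and Cdh1, the mesenchymal markers Vim, Zeb1 and Cdh2 were all listed, of the fibroblast markers Lum and Pdgfra were listed at low levels, and leukocyte, endothelial, acinar and islet markers were not. Levels of all other genes are CPM scaled with TMM factors. The torin 1 response over the other genes above a minimum level (8071 in footprints and 8423 in RNA-seq), scaled to 0 for DMSO and 1 for torin 1 in replicates 1 and 2, was -0.076 to 0.11 in footprint libraries with DMSO and 0.47 to 1.43 in those with torin 1. At a cut of 0.5 between the treatments, 1 footprint library, control with torin 1 replicate 3 (0.47), lay just on the side of DMSO. Without it, 4 of the 78 genes were called with torin 1 in control cells in place of 5 (5.13%, where 6.47% of all genes were called). In RNA-seq the response went against the labels in 6 of 11 libraries with replicate numbers 4 to 6. These were control with torin 1 replicates 5 and 6 (-0.051 and -0.09), Ctu1 iKO with DMSO replicates 4 and 5 (0.96 and 0.84), and Ctu1 iKO with torin 1 replicates 5 and 6 (0.20 and 0.19). Transcripts and translational efficiency were therefore tested in replicates 1 to 3. Replicates 1 and 2 set the scale and do not check their own labels, while replicate 3 was at -0.26 and -0.11 with DMSO and at 0.57 and 0.85 with torin 1 in control and Ctu1 iKO libraries.

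Because loss of Ctu1 is expected to affect AAA codons first, the codon content of the 78 coding sequences (GENCODE M21, GRCm38) was counted. AAA made up a median of 2.98% of codons in the mitochondrial ribosomal protein genes and 2.15% over 10295 listed genes with a coding sequence, and 53 of the 78 lay above the latter. Lysine was frequent in general, since AAG was at a median of 4.53% against 3.43%. The cytosolic ribosomal proteins had a median of 3.4% AAA and 8.33% AAG. The coding sequences were short, with a median of 193 codons against 461 over all genes. The stretches of 60 codons with the most AAA codons are given for the 3 genes with the highest AAA share, for Mrps2 and Mrpl34 at the low end, and for Mrpl30, Mrpl36 and Mrpl19, whose footprints turn up in the comparisons. AAA codons are in capitals, and all stretches read 5′ to 3′ along the coding strand.
Mrpl33: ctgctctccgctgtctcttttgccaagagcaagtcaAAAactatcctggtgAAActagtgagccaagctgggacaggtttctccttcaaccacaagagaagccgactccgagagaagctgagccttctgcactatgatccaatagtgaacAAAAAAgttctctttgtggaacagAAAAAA
Mrps36: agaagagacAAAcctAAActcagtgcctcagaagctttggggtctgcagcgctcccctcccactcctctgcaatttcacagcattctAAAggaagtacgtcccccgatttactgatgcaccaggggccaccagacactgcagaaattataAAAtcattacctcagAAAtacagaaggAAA
Mrps15: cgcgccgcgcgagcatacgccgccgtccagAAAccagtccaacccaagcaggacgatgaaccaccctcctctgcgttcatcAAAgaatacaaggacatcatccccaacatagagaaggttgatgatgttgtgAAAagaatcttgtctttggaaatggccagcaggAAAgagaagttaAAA
Mrpl30: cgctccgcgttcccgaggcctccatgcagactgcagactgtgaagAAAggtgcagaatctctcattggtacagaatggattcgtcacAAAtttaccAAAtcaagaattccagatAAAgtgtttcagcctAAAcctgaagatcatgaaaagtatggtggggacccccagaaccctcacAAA
Mrpl36: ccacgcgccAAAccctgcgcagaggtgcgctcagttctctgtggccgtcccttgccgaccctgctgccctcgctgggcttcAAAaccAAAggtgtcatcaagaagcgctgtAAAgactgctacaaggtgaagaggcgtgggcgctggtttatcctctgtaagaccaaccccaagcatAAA
Mrpl19: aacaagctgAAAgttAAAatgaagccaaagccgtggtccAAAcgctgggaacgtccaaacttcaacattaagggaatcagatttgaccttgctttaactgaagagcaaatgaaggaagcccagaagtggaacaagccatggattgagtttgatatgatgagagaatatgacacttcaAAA
Mrps2: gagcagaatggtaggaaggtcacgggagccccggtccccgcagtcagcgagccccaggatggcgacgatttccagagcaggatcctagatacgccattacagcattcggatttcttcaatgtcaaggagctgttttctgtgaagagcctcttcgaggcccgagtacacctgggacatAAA
Mrpl34: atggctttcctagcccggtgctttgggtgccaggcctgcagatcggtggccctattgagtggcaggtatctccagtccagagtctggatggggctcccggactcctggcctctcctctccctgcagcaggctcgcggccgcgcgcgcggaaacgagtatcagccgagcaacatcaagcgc
Mrpl33, a very small large subunit protein on chromosome 5 (31596935 to 31664384), had AAA at 9.38% of its 64 codons. Mrps36 was at 5.94% and Mrps15, a small subunit protein, at 5.84%. Mrpl30 on chromosome 1 (37890477 to 37898535) followed at 5.66% of 159 codons, and Mrpl36 on chromosome 13 (73328513 to 73332178) was at 4.95% of 101. At the other end, Mrps24 was at 0.602%, Mrps2 at 0.345%, and Mrpl34, with 91 codons, had none. The annotated exons of 33 of the 78 genes overlapped those of another gene, on the opposite strand in 28 and on the same strand in 8. The strand setting of the counting is not given in the sources used here, and the values of these genes are uncertain to that extent.

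In control cultures with DMSO, the genes were expressed at moderate levels. Footprints per kb of coding sequence were at a median of 54.8 CPM per kb over the 78 genes and 18.3 over 9711 genes, with 74 of the 78 above the latter. Cytosolic ribosomal proteins were at a median of 1600 and respiratory chain subunits at 254. Mrps17 (461 ± 61.9 CPM per kb, SD, n = 6), Mrps14 (241 ± 17.1) and Mrpl20 (234 ± 15.9) were highest in footprints, and Mrpl44 (9.6 ± 0.909), Mrpl46 (12 ± 2.11) and Mrps31 (13.7 ± 1.12) lowest. Mrps17 stood above all others beyond its spread, whereas Mrps14 and Mrpl20 did not differ beyond theirs. Transcripts per kb of mRNA were at a median of 20.7 CPM per kb against 11.7 over all genes. The log2 ratio of footprint to transcript CPM (pseudocount 1) had a median of 0.17 against -0.28 over all genes, and ranged from -0.96 ± 0.027 for Mrps2 to 2.24 ± 0.029 for Mrps33 (SD, n = 3). Large and small subunit genes had medians of 0.15 and 0.22. This ratio was not scaled by length, so differences between genes also hold those between coding and mRNA length.

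With torin 1, footprints on most mitochondrial ribosomal protein genes were slightly below those with DMSO, and few single genes passed the test. In control cells, footprints fell on 5 of the 78 genes and rose on 0 (edgeR's quasi-likelihood test, Benjamini-Hochberg adjusted p under 0.05), which is 6.41% of them where 7.24% of all genes tested changed and 4.33% fell. The share of calls was near that of the background. The log2 change had a median of -0.13 and was below 0 for 60 of the 78 genes, while over all genes the median was 0.015. Footprints in Ctu1 iKO cells fell on 6 and rose on 0, or 7.69%, where 8.00% of all genes changed and 4.52% fell. Here the median was -0.22 against 0.018, with 67 of 78 below 0. Both subunits had similar values, with medians of -0.12 for Mrpl and -0.14 for Mrps genes in control cells, and -0.22 and -0.23 in Ctu1 iKO cells. The cytosolic ribosomal proteins, counted in the same libraries, were lower on 87 of 91 genes in control (median -0.97) and on 88 of 91 in Ctu1 iKO cells (median -1.61).

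**Figure D1:**
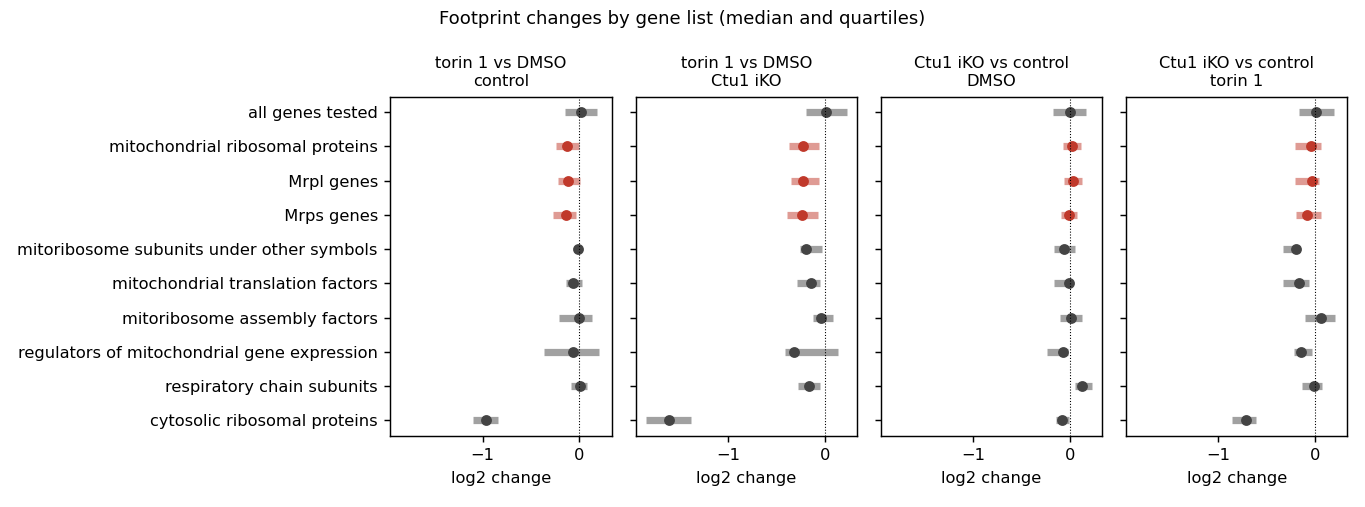
Footprint log2 changes by gene list in the 4 comparisons, with the median (point) and the quartiles (bar) over the genes tested in each list. The mitochondrial ribosomal proteins (red) had medians of -0.13 and -0.22 with torin 1 and lay near 0 between genotypes, while cytosolic ribosomal proteins had medians of -0.97 and -1.61.

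The summed footprints on the 78 genes ran from 3370 to 3728 CPM in the 6 control cultures with DMSO (median 3543) and from 3171 to 3351 in the 6 with torin 1 (median 3329). The sum in Ctu1 iKO cells was 3603, 3712, 3714, 3510 and 3523 CPM with DMSO and 2982 to 3288 with torin 1 (median 3158). In either genotype the highest culture with torin 1 was below the lowest with DMSO, although the distance between them was small. With DMSO, the Ctu1 iKO cultures fell within the range of the control cultures. With torin 1, 4 Ctu1 iKO cultures lay below the lowest control culture, and the ranges overlapped. Within the same-numbered cultures with torin 1, which paired, the sum was lower in Ctu1 iKO in 5 of 6 pairs. In transcripts of replicates 1 to 3, the sums were 2985 ± 72.7 and 2846 ± 95.9 CPM in control and 3017 ± 116 and 2822 ± 155 in Ctu1 iKO cultures with DMSO and torin 1 (SD, n = 3). The ranges overlapped in each genotype, while within each replicate number, by which these libraries paired, the sum was lower with torin 1 in 3 of 3 pairs of either genotype. Scaling by library totals alone, which put the median of all genes at 0.10 in control and 0.11 in Ctu1 iKO cells, left 3 and 2 genes lower (3.85% and 2.56%, where 9.43% and 9.1% of all genes changed), with medians of -0.042 and -0.12 for the 78 genes.

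**Figure D2:**
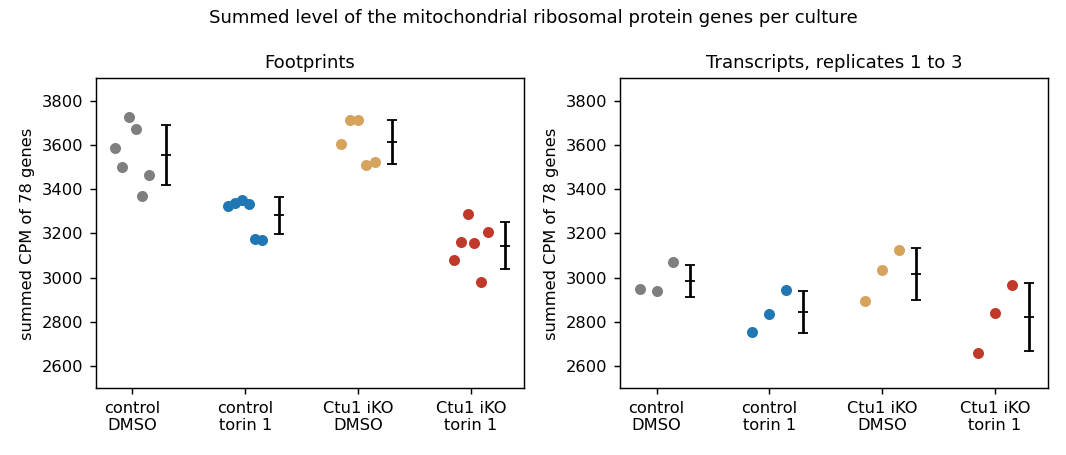
Summed CPM of the 78 mitochondrial ribosomal protein genes in each culture (points), with mean and SD beside them, for footprints and for transcripts of replicates 1 to 3. The y axis does not start at 0. With torin 1, footprint sums lay at 3171 to 3351 in control and 2982 to 3288 in Ctu1 iKO cultures, below those with DMSO.

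The genes that passed the test in control cells included Mrpl19, a large subunit protein encoded on chromosome 6 (81957851 to 81965958). Its footprints were at 14.3 to 19.0 CPM with DMSO (median 16.0) and 8.94 to 12.3 with torin 1 (median 9.88), so that the groups did not overlap. The log2 change was -0.70 (standard error 0.12, adjusted p = 0.00186). Its call was kept in 12 of 12 fits without 1 culture. Mrpl19 in Ctu1 iKO cells was at 9.96, 13.1, 11.5, 14.3 and 14.7 CPM with DMSO and 8.82 to 12.3 with torin 1 (median 10.3), which overlapped (-0.31, SE 0.16, adjusted p = 0.28). The exons of Mrpl19 share 1962 bases with Gcfc2 on the opposite strand, and whether reads of Gcfc2 entered its counts was not tested. Mrps2, a small subunit protein, was at 13.2 to 20.3 CPM with DMSO (median 15.6) and 8.92 to 14.9 with torin 1 (median 11.4) in control cells, with overlapping ranges (-0.50, SE 0.14, adjusted p = 0.0451), and its call was kept in 2 of 12 fits.

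Mrps26, Mrps23 and Mrpl52 passed the test in both genotypes, in comparisons that share no library. Mrps26, a small subunit protein, was at 11.7 to 16.6 CPM with DMSO (median 14.5) and 8.37 to 11.6 with torin 1 (median 9.8) in control cells, without overlap (-0.55, SE 0.13, adjusted p = 0.0178). Among Ctu1 iKO cultures it was at 14.5, 15, 17.8, 12.6 and 13 CPM with DMSO and 6.77 to 11.1 with torin 1 (median 9.96), again without overlap (-0.58, SE 0.16, adjusted p = 0.0449). The log2 changes of Mrps26 in the genotypes differed by less than either standard error. With the replicate block, Mrps26 was not called in Ctu1 iKO cells (adjusted p = 0.0874), where the cultures did not pair. Mrps23, also of the small subunit, was at 56.2 to 76.8 CPM with DMSO (median 65.9) and 34.6 to 52.5 with torin 1 (median 47.8) in control cells (-0.48, SE 0.11, adjusted p = 0.014). With Ctu1 iKO it was at 40.6, 64.4, 76.9, 56.1 and 51.4 CPM with DMSO and 32.7 to 46.7 with torin 1 (median 38.3), where the lowest DMSO culture lay within the torin 1 range (-0.59, SE 0.15, adjusted p = 0.0281). Mrpl52, of the large subunit, was at 52.5 to 75.2 CPM with DMSO (median 64) and 40 to 61 with torin 1 (median 46.4) in control cells (-0.41, SE 0.12, adjusted p = 0.0475). The Ctu1 iKO cultures were at 58, 67.2, 63.5, 57 and 65 CPM with DMSO and 29.8 to 46.7 with torin 1 (median 42), without overlap (-0.62, SE 0.12, adjusted p = 0.00472). Without 1 culture at a time, Mrps26 and Mrps23 kept their calls in control cells in 12 of 12 fits and Mrpl52 its call in Ctu1 iKO cells in 11 of 11, whereas Mrpl52 in control cells kept it in 2 of 12, Mrps23 in Ctu1 iKO cells in 4 of 11 and Mrps26 in 1 of 11. Over the 78 genes, the count in control cells was 3 without replicate 1, 3 or 4 of DMSO or replicate 4, 5 or 6 of torin 1, where 5.76% to 6.98% of all genes changed. For Ctu1 iKO cells it was 2 without DMSO replicate 2 or torin 1 replicate 5, and 3 without DMSO replicate 1, 3 or 5 or torin 1 replicate 4, where 5.35% to 6.58% of all genes changed.

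The promoters of these 3 genes are given because their footprints were called lower with torin 1 in both genotypes. Transcripts of Mrps26 and Mrpl52 were not called with torin 1 in either genotype, and a link between motif and footprints was not tested. Each holds the 150 bases before the RefSeq transcription start on its coding strand, all 3 on the plus strand of GRCm38.p6, at chr2:130563607-130563756 for Mrps26, chr11:88204238-88204387 for Mrps23 and chr14:54426759-54426908 for Mrpl52. Capitals mark CCGGAAG or its reverse complement, the core bound by GABP and other ETS factors, which are known regulators of nuclear-encoded mitochondrial genes.
Mrps26: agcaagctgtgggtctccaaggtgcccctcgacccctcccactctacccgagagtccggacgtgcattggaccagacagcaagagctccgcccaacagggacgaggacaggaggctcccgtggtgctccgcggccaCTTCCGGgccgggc
Mrps23: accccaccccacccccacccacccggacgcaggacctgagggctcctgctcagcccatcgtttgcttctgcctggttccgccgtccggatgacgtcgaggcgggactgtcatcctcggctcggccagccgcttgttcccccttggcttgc
Mrpl52: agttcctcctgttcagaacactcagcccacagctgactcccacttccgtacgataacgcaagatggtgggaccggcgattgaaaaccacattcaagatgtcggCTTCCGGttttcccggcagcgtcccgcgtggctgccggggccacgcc
In windows from 250 bases before to 50 after the start, CCGGAAG stood on either strand in 25 of the 69 members with a RefSeq window (36.2%), in 20.5% of windows of listed genes and in 9.12% of all 27025 windows. In Mrps23 the match lay outside the bases shown. The NRF1 core GCATGCGC was in 8 of the 69 (11.6%) and 6.17% of the windows of listed genes, and the YY1 core AAGATGGC in 12 (17.4%) and 5.27%. These matches are a description of letters, and the binding of a factor was not measured.

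Mrpl30, a large subunit protein, had the largest fall in Ctu1 iKO cells. Its footprints were at 97.3, 92.1, 80.1, 81.6 and 95.4 CPM with DMSO and 50.3 to 64 with torin 1 (median 53.5). The groups were far apart, with a log2 change of -0.69 (SE 0.10, adjusted p = 0.000588), and the call was kept in 19 of 19 alternative fits. In control cells it was at 64.8 to 96.1 CPM with DMSO (median 87.3) and 65.8 to 72.5 with torin 1 (median 71.2), with the lowest DMSO culture below the torin 1 range (-0.28, SE 0.10, adjusted p = 0.0947, and 0.0426 with the replicate block). Mrps16, of the small subunit, was at 32.1, 28.5, 24.8, 25 and 24.5 CPM with DMSO and 16.1 to 23.3 with torin 1 (median 18.8) in Ctu1 iKO cells, without overlap (-0.49, SE 0.14, adjusted p = 0.0467, and 0.0914 with the replicate block), and kept its call in 2 of 11 fits. Mrpl58, a peptidyl-tRNA hydrolase built into the large subunit and named here after its values were seen, changed by -0.44 in Ctu1 iKO (adjusted p = 0.029) and by -0.40 in control cells (adjusted p = 0.0591, and 0.0342 with the replicate block). Its call in Ctu1 iKO cells was kept in 6 of 11 fits without 1 culture. The difference between the genotypes was tested for all genes as an interaction and passed for 0 of the 78 (edgeR; 3 at an unadjusted p under 0.05; 0 by DESeq2), where 0.639% of all genes passed. Mrpl30 ranked lowest in p (interaction -0.41, SE 0.13, adjusted p = 0.371), followed by Mrpl19 (0.40, SE 0.18, adjusted p = 0.986) and Mrpl23 (-0.39, SE 0.18, adjusted p = 0.992). Mrps18b had the next smallest p among positive values (0.22, SE 0.16, adjusted p = 1).

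**Figure D3:**
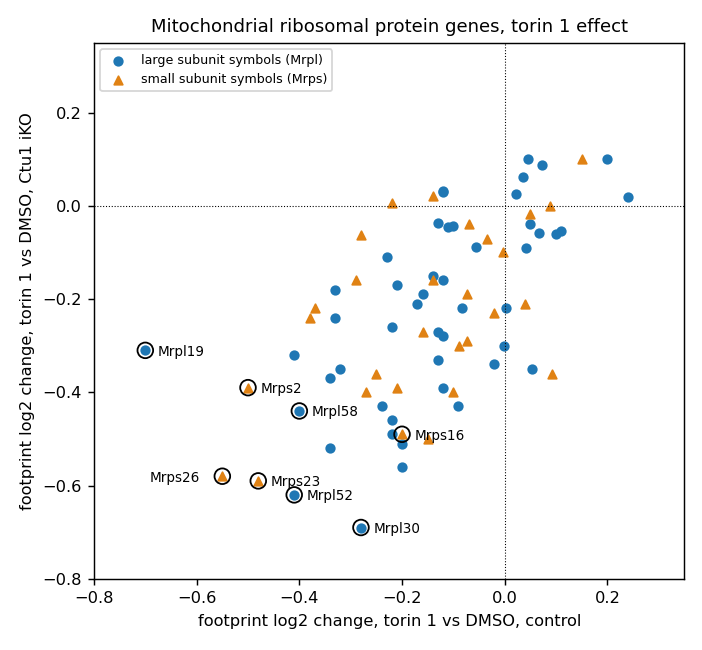
Log2 change of footprints with torin 1 in control (x axis) and Ctu1 iKO cells (y axis) for each of the 78 genes; circled genes passed the test in at least 1 genotype. Of the 78 genes, 56 lay below 0 on both axes.

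Across the 78 genes the torin 1 effect was below 0 in both genotypes for 56 (71.8%) and above 0 in both for 7, while of all genes 34.6% were below 0 in both. The changes in the genotypes correlated over the 78 genes with Pearson's r = 0.59 (Spearman's rho = 0.59) and over 9854 genes with r = 0.72 (rho = 0.65), a description across genes that were counted in the same libraries. Called in both genotypes were 3 genes, out of 5 called in control and 6 in Ctu1 iKO cells, or 3.85% of the 78 where 4.52% of all genes were.

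The same-numbered cultures of control cells moved together (correlations of their deviations of 0.43 to 0.63 over 6 pairs), and with the replicate number as a block 18 of the 78 genes were lower with torin 1 in control cells and 0 higher, or 23.1% where 20.5% of all genes changed. In Ctu1 iKO cells the numbers did not pair by this measure.

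Loss of Ctu1 left footprints on the mitochondrial ribosomal protein genes close to control. With DMSO, 0 of the 78 genes passed the test (edgeR; 8 at an unadjusted p under 0.05; 0 by DESeq2), where 2.66% of all genes did. The median log2 change was 0.023, with quartiles at -0.067 and 0.11. The smallest p-values among higher values were those of Mrpl23 (0.31, SE 0.11, adjusted p = 0.14) and Mrpl20 (0.35, SE 0.12, adjusted p = 0.147), and among lower ones those of Mrpl19 (-0.36, SE 0.13, adjusted p = 0.167) and Mrpl16 (-0.36, SE 0.15, adjusted p = 0.208), all 4 of the large subunit. With torin 1, 2 of the 78 were lower and 0 higher (2.56%, where 4.83% of all genes changed and 2.60% were lower), and the median was -0.047 against 0.012. Mrpl36, a small large subunit protein, was at 17 to 24.7 CPM in control (median 22.8) and 11 to 16.1 in Ctu1 iKO cultures with torin 1 (median 15.1), without overlap (-0.60, SE 0.14, adjusted p = 0.0217). Its exons share 30 bases with Ndufs6 on the opposite strand. Mrpl30 was at 65.8 to 72.5 CPM in control and 50.3 to 64 in Ctu1 iKO cultures, also without overlap (-0.34, SE 0.092, adjusted p = 0.0481). Mrpl36 kept its call in 10 and Mrpl30 in 1 of 12 fits that leave out 1 culture, and without control replicate 3 or 4 neither passed (3.19% and 3.46% of all genes did). With the replicate block, which the cultures with torin 1 supported (0.28 to 0.54 over 6 pairs), 4 genes were lower, or 5.13% where 14.4% of all genes changed. With torin 1, cytosolic ribosomal proteins were lower in Ctu1 iKO cells on 77 of 91 genes, with a median of -0.71.

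**Figure D4:**
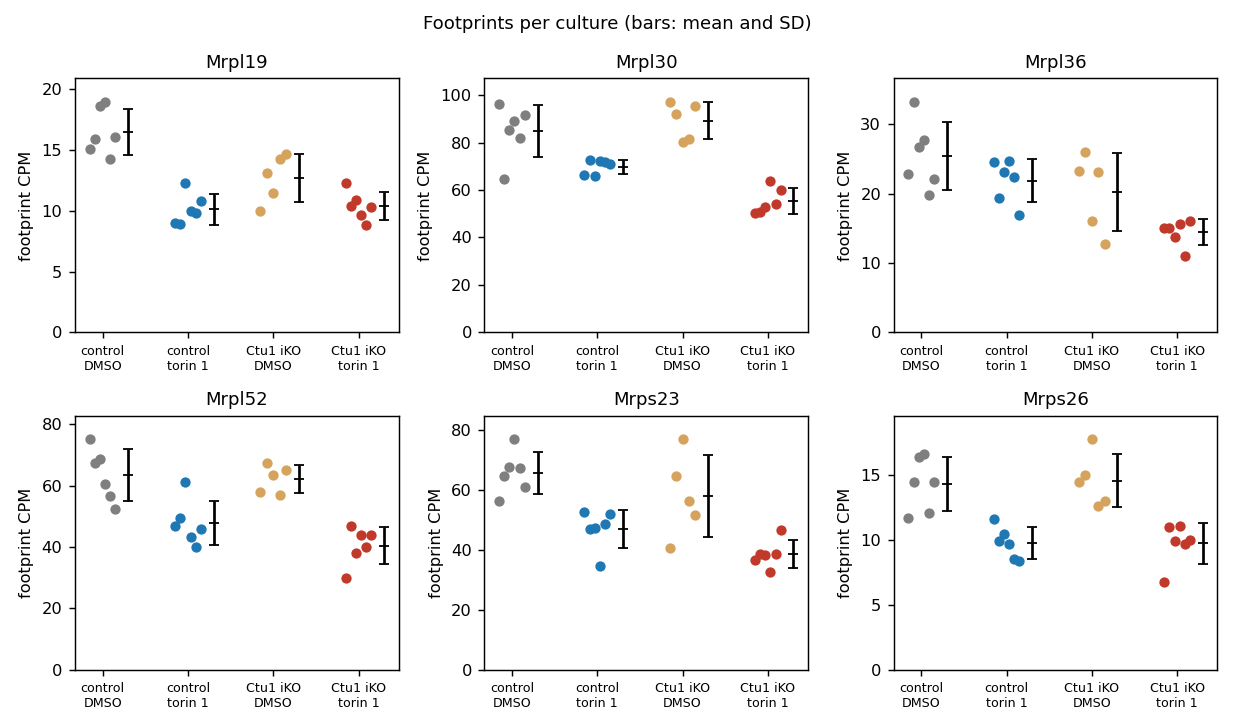
Footprint CPM in each culture (points) of 6 named genes in the 4 groups, with mean and SD as bars beside the points. Mrps26 fell with torin 1 in both genotypes, Mrpl30 most in Ctu1 iKO cells (50.3 to 64 against 80.1 to 97.3 with DMSO), and Mrpl36 was lowest in Ctu1 iKO cultures with torin 1.

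AAA share and the difference between Ctu1 iKO and control were weakly related. Over the 78 genes, the footprint change with DMSO and the AAA share had r = -0.17 (rho = -0.18), and over 10239 genes r = -0.0084. The 26 genes with the lowest AAA share (0 to 2.17%) had a median footprint change of 0.067, and the 26 with the highest (3.55 to 9.38%) one of -0.017. For translational efficiency, the footprint change relative to the transcript change in replicates 1 to 3, r was -0.36 (rho = -0.37) with DMSO and 0.055 with torin 1, against -0.057 over all genes with DMSO. In the alternative fits with DMSO this r ranged from -0.38 to -0.15 and rho from -0.38 to -0.054, and the r of the footprint change from -0.24 to -0.092. The 26 genes with the lowest AAA share had a median change in translational efficiency of 0.076 and the 26 with the highest one of -0.07, and 6 and 17 of them lay below 0. Mrpl33, with the highest AAA share, did not carry this relation, since r was -0.33 without it. All points share the same libraries, and no single gene passed the test in these comparisons with DMSO (8 in footprints and 1 in translational efficiency at an unadjusted p under 0.05; 0 by DESeq2 in both).

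**Figure D5:**
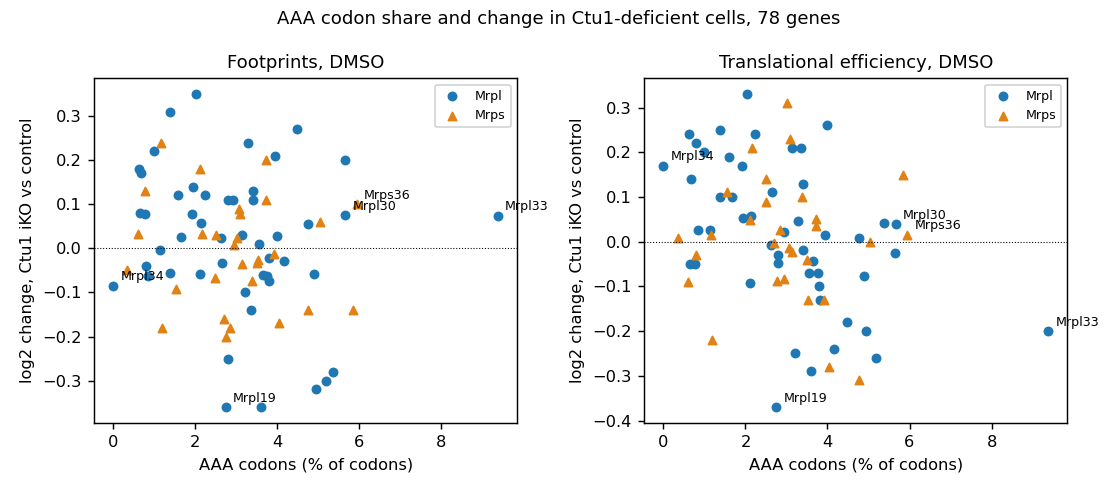
Share of AAA codons (x axis, % of codons) against the log2 change of footprints (left) and of translational efficiency (right) in Ctu1 iKO against control with DMSO for the 78 genes. The points scatter around 0 on the left (r = -0.17) and slope weakly down on the right (r = -0.36).

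Without the replicate block, which is given below and raised the counts, transcripts of few of the 78 genes passed the test with torin 1. In control cells 5 of the 78 genes were lower and 0 higher (6.41%, where 13.1% of all genes changed and 7.40% were lower), and in Ctu1 iKO cells 2 were lower and 0 higher (2.56%, where 8.25% changed and 4.52% were lower). The medians were -0.10 and -0.088, against 0.0007 and 0.0033 over all genes, where those in footprints were -0.13 and -0.22. Mrpl50, a large subunit protein, was at 27.4, 25.3 and 24.5 CPM with DMSO and 20.4, 19.4 and 19.9 with torin 1 in control cells (-0.39, SE 0.071, adjusted p = 0.0141). The Ctu1 iKO libraries were at 26.2, 26.8 and 27.8 CPM with DMSO and 20.2, 18.9 and 20.9 with torin 1 (-0.43, SE 0.085, adjusted p = 0.0257). In both genotypes every torin 1 value of Mrpl50 was below every DMSO value. Mrps23 was at 63.2, 61.7 and 60.8 CPM with DMSO and 51.6, 52.1 and 51.9 with torin 1 in control cells (-0.27, SE 0.056, adjusted p = 0.0208). In Ctu1 iKO cells it was at 57.4, 58.7 and 61 CPM with DMSO and 46.6, 46.4 and 49.2 with torin 1 (-0.32, SE 0.075, adjusted p = 0.0443). Mrps23 was the member lower by the test in transcripts and footprints of both genotypes. Without 1 library, 0 of the 78 were called in control cells when DMSO replicate 1 or 2 or torin 1 replicate 2 was left out (4.28% to 5.98% of all genes), 1 without DMSO replicate 3 or torin 1 replicate 1 (8.99% and 6.98%), and 8 without torin 1 replicate 3 (12.8%). In Ctu1 iKO cells 6 were called without torin 1 replicate 3 (11.7% of all genes) and 0 without any other library (1.28% to 4.77%).

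Also called in control cells were Mrpl46 (-0.44, SE 0.10, adjusted p = 0.0255), Mrps2 (-0.31, SE 0.078, adjusted p = 0.0398) and Mrps7 (-0.29, SE 0.07, adjusted p = 0.0332). Mrpl46 was at 10.9, 11.4 and 11.9 CPM with DMSO and 8.06, 8.11 and 9.41 with torin 1. Mrps7 was at 42.9, 45.1 and 47.3 CPM with DMSO and 35.6, 37.2 and 38.9 with torin 1. Neither overlapped, and in Ctu1 iKO cells the values of Mrpl46 and Mrps7 did not overlap either, at 11.1, 11.2 and 11.5 against 7.56, 8.85 and 9.62 CPM for Mrpl46 and 45.1, 45.7 and 49.7 against 34.2, 39.7 and 38.8 for Mrps7. Mrps2 transcripts were at 30.8 to 33.8 CPM with DMSO and 24.2 to 27.4 with torin 1 in control cells, also without overlap. In Ctu1 iKO cells Mrps2 transcripts changed by -0.26 (SE 0.14, adjusted p = 0.325). Exons of Mrpl46 share 173 bases with Mrps11 and those of Mrps7 246 with Gga3 and Mif4gd on the opposite strand. The interaction passed for 0 of the 78 genes and 0% of all genes (edgeR; 0 of the 78 at an unadjusted p under 0.05; 0 by DESeq2). Its smallest p-values were those of Mrpl52 (-0.17, SE 0.10) and Mrpl36 (-0.20, SE 0.15) below 0 and of Mrpl38 (0.12, SE 0.10) and Mrps18b (0.15, SE 0.12) above.

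Between genotypes, transcripts of 1 gene differed with DMSO (1.28%, where 5.12% of all genes changed and 3.32% were higher). Mrps21, a small subunit protein, was at 33, 33.3 and 33.3 CPM in control and 39.3, 39.9 and 41 in Ctu1 iKO cultures (0.27, SE 0.061, adjusted p = 0.0492). These values did not overlap, yet the call was lost without any 1 of the 6 libraries. With torin 1, 0 of the 78 passed (edgeR; 6 at an unadjusted p under 0.05; 1 by DESeq2), where 1.31% of all genes did. The smallest p-values were those of Mrpl41 (0.38, SE 0.13, adjusted p = 0.159) and Mrpl24 (0.23, SE 0.084, adjusted p = 0.186) among higher values, and of Mrps15 (-0.25, SE 0.081, adjusted p = 0.154) and Mrpl21 (-0.28, SE 0.091, adjusted p = 0.158) among lower ones. Without Ctu1 iKO replicate 3, 2 genes passed (2.56%, where 4.21% of all genes did). With the replicate block the adjusted p was 0.0135 for Mrpl41, 0.0192 for Mrpl24, 0.0234 for Mrps15 and 0.00707 for Mrpl21. The medians were 0.014 with DMSO and 0.0014 with torin 1. Respiratory chain subunits had median transcript changes of 0.17 and 0.14 in the same comparisons, and 3 and 0 of 77 passed, all higher.

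Same-numbered RNA-seq libraries deviated together (0.53 to 0.86 over 3 pairs in each comparison), and the replicate block raised the counts of transcripts called. With it, 26 of the 78 genes were lower and 1 higher with torin 1 in control cells, or 34.6% where 43.7% of all genes changed. The block gave 14 lower genes in Ctu1 iKO cells (17.9% against 35.1%). Between genotypes 8 genes differed with DMSO (10.3% against 28.0%) and 12 with torin 1 (15.4% against 32.8%), in both directions. The members' share lay below that of all genes in each of these fits.

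In translational efficiency, 1 of the 78 genes passed in 1 of the 4 comparisons. With torin 1 in control cells, 0 of the 78 genes passed (edgeR; 5 at an unadjusted p under 0.05; 1 by DESeq2), where 1.14% of all genes did, and the median was -0.027. The lowest p-values were those of Mrpl52 (-0.53, SE 0.16, adjusted p = 0.268) and Mrpl35 (-0.57, SE 0.20, adjusted p = 0.462) below 0, and of Mrpl46 (0.62, SE 0.28, adjusted p = 0.743) and Mrpl39 (0.35, SE 0.16, adjusted p = 0.781) above. In Ctu1 iKO cells 1 gene passed (1.28%, where 1.67% of all genes changed and 1.58% were lower), with a median of -0.10. With library totals alone both medians were above 0, at 0.10 in control and 0.065 in Ctu1 iKO cells, and those of all genes were 0.16 and 0.20. The gene was Mrpl30 (-0.84, SE 0.17, adjusted p = 0.0193), whose transcripts were at 94.8, 96.9 and 106 CPM with DMSO and 99.8, 94.2 and 108 with torin 1, overlapping, while its footprints did not overlap. The call of Mrpl30 was kept in 1 of 6 fits without 1 culture, that without DMSO replicate 3, with adjusted p up to 0.203 over the alternatives. In control cells its efficiency changed by -0.34 (SE 0.18, adjusted p = 0.844). Of the cytosolic ribosomal proteins, 66 of 91 in control and 80 of 91 in Ctu1 iKO cells were lower in translational efficiency. Between genotypes 0 of the 78 passed with DMSO (edgeR; 1 at an unadjusted p under 0.05; 0 by DESeq2), where 0% of all genes did, and 0 with torin 1 (edgeR; 1 at an unadjusted p under 0.05; 0 by DESeq2), against 0.111%. The smallest p-values with DMSO were those of Mrpl20 (0.33, SE 0.14), Mrps5 (0.31, SE 0.19), Mrpl19 (-0.37, SE 0.20) and Mrpl52 (-0.24, SE 0.14), each at an adjusted p of 1. With torin 1 they were those of Mrps31 (0.45, SE 0.32), Mrps7 (0.24, SE 0.23), Mrpl30 (-0.46, SE 0.15, adjusted p = 0.569) and Mrps24 (-0.45, SE 0.22). The medians were 0.016 and -0.12, against -0.0018 and -0.005 over all genes.

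Mrpl12, Mrps12 and the Mrps18 paralogues passed the test in 0 of the 14 main fits (edgeR), which hold no block. Those of footprints with torin 1 are given here. Mrps18b was at an unadjusted p of 0.0443 in control and Mrpl12 at 0.00638 in Ctu1 iKO cells. In alternative fits with torin 1, Mrpl12 passed in 3 of 19 for footprints in Ctu1 iKO cells. For transcripts it passed in 4 of 14 in control and 1 of 14 in Ctu1 iKO cells. Mrpl12, which also binds the mitochondrial RNA polymerase, was at 39.4 to 61.3 footprint CPM with DMSO (median 46.7) and 35.3 to 47.9 with torin 1 (median 42.2) in control cells. In Ctu1 iKO cells it was at 51.3, 55.2, 58.6, 40.5 and 43.6 CPM with DMSO and 29.4 to 45.3 with torin 1 (median 34.6), and the ranges overlapped in both genotypes (-0.22, adjusted p = 0.334, and -0.46, adjusted p = 0.0691). Its transcript log2 differences were -0.36 (adjusted p = 0.0826) and -0.37 (adjusted p = 0.181), and both passed with the replicate block (adjusted p = 9.63e-05 and 0.00225). Mrps12, a protein of the decoding region, varied widely between cultures, at 19.7 to 49.8 footprint CPM in control with torin 1 and 25.2 to 42.9 with DMSO (-0.069, SE 0.21, and 0.021 with library totals alone).

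The paralogues Mrps18a, Mrps18b and Mrps18c differed in level more than in response. In control with DMSO, Mrps18c was at 179 ± 23.6 and Mrps18b at 168 ± 23.7 footprint CPM per kb (SD, n = 6), which do not differ beyond their spread, and Mrps18a at 45.7 ± 5.96. The log2 ratio of footprints to transcripts was 1.20 and 1.24 for Mrps18c and Mrps18b, and -0.12 for Mrps18a. Footprint changes with torin 1 in control cells were -0.02 (SE 0.11) for Mrps18a, -0.28 (SE 0.13, adjusted p = 0.224) for Mrps18b and -0.0034 (SE 0.13) for Mrps18c, and in Ctu1 iKO cells -0.23 (SE 0.16), -0.063 (SE 0.10) and -0.10 (SE 0.17). With library totals alone Mrps18a was at 0.074 and Mrps18c at 0.087 in control and Mrps18b at 0.033 in Ctu1 iKO cells, so that these directions are not settled. Exons of Mrps18b share 638 bases with Gm16279 on the opposite strand, and those of Mrps18c 250 with Gm43511 on the same strand.

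The wider machinery around the mitoribosome is given against the 7.24% and 8.00% of all genes that changed in footprints with torin 1. Of the subunits with other symbols, Dap3, Ptcd3, Chchd1, Aurkaip1 and Gadd45gip1 among them, 5 were tested and 0 changed in footprints with torin 1 in either genotype (edgeR; 1 in control and 2 in Ctu1 iKO cells at an unadjusted p under 0.05), with medians of -0.011 and -0.19. Of 11 mitochondrial translation factors such as Tufm, 0 changed in either genotype (0 and 1 unadjusted), and the medians were -0.07 and -0.14. Assembly and rRNA modification factors had 1 of 21 lower in each genotype, with medians of -0.0028 and -0.034. Of 9 regulators of mitochondrial gene expression such as Tfam, 2 were lower in control (22.2%) and 0 in Ctu1 iKO cells (4 unadjusted), with medians of -0.065 and -0.32. Respiratory chain subunits, the complexes that the mitoribosome serves, were lower on 3 of 77 genes in control (3.9%, median 0.0068) and on 10 of 77 in Ctu1 iKO cells (13.0%, median -0.16), and 0 were higher.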

How the data were processed

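Per the authors' methods and the submitters' processing notes, footprint reads were trimmed (cutadapt 3.4), handled with UMI-tools 1.1.1 and aligned and counted per gene with STAR 2.5.3a, and the authors deposited raw counts for 46 libraries of 23 cultures. The notes name GRCm38 and mm10 while the methods name a human genome, and whether molecular identifiers were collapsed and which strand was counted are not given in the sources used here. All RNA counts were even, and listed genes reached at least 100 footprint counts in 1 or more libraries.

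Symbols on 1 entry were kept where their average over the fitted libraries reached 10 counts. Whole tables were fitted with edgeR 4.0.16 (R 4.3.3, TMM, quasi-likelihood test), and genes were called at a Benjamini-Hochberg adjusted p under 0.05. Torin 1 and genotype were compared in footprints (all replicates), transcripts and translational efficiency (replicates 1 to 3, interaction of assay and group). Standard errors belong to log2 changes. Ratios of levels used a pseudocount of 1 CPM. DESeq2 1.42.0, other scalings and filters, the replicate block, a batch term (replicates 1 and 2 against 3 to 6) and leaving out each replicate were alternatives. The labels name no batch, and this split was set for the fit. The fits were also run on simulated independent counts with a single dispersion and no replicate or batch structure. This setting is simpler than the data and does not show how the fits behave with paired cultures. A number was taken to pair cultures where every pair's deviations correlated above 0.1, as held in 6 of 8 comparisons. No libraries were duplicates by their counts.

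Genes named were, per comparison, up to 5 called in each direction with the largest changes, or up to 2 in each direction with the smallest p where none was called; the 3 highest and lowest in footprints per kb and in AAA share; and Mrpl12, Mrps12 and the Mrps18 genes. Members and lists were chosen with earlier results of these data known, so their counts are descriptions without list tests. Figures were drawn with matplotlib 3.10.9.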

Additional observations from a re-analysis of the deposited data

Results flagged for a closer look

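In 4 of 56 groups of footprint values of named genes, 1 culture stood apart from the others by Dixon's criterion, where chance gives about 1 in 20, or 2.8 of 56. Mrps26 was at 6.77 CPM in Ctu1 iKO with torin 1 replicate 1, and the nearest culture was at 9.68. Mrps2 was at 15.6 CPM in Ctu1 iKO with torin 1 replicate 4, with the nearest at 11.8. Mrps23 was at 34.6 CPM in control with torin 1 replicate 4, with the nearest at 46.8. Mrps16 was at 30.9 CPM in control with DMSO replicate 1, with the nearest at 23.5.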

How the results depend on the processing

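Among the log2 changes printed for single genes and recomputed, 4 footprint changes with torin 1 reversed, none of them called. In control cells Mrps12 was at 0.021 with library totals and 0.10 with replicates 1 to 3 (-0.22 to 0.049 without 1 culture), Mrps18a at 0.074 and 0.044 (-0.061 to 0.028), and Mrps18c at 0.087 and 0.044 (-0.062 to 0.069). In Ctu1 iKO cells Mrps18b was at 0.033 with library totals. Some medians over the 78 genes reversed too. Between genotypes with DMSO, the footprint median was -0.0088 without control replicate 5 and -0.0094 without Ctu1 iKO replicate 2, and ran up to 0.062. The transcript median ran from -0.041 to 0.053 with DMSO and from -0.046 to 0.022 with torin 1, below 0 in 5 and 7 alternatives, and that of the interaction, above 0 in 5, from -0.052 to 0.047. In translational efficiency both medians with torin 1 were above 0 with library totals alone (0.10 in control and 0.065 in Ctu1 iKO cells), the median between genotypes with DMSO was -0.0092 without control replicate 2 and -0.01 without Ctu1 iKO replicate 1, and r with AAA share ran from -0.028 to 0.10 with torin 1. With the replicate block, the counts of members called were 18 and 4 in footprints (torin 1 in control, and Ctu1 iKO against control with torin 1) and 27, 14, 8 and 12 in transcripts (torin 1 in control and in Ctu1 iKO, then Ctu1 iKO against control with DMSO and with torin 1). The block changed no other count by more than 1.5 times, and same-numbered cultures did not pair in the other footprint comparisons. In one of these, torin 1 in Ctu1 iKO cells, 6 genes were called with the block as without it, of which 4 were shared. With the block these 6 were 7.69% of the 78, where 9.97% of all genes changed. Mrps26 (adjusted p = 0.0874) and Mrps16 (adjusted p = 0.0914) were not called with it. In footprints, torin 1 in control gave 10 with DESeq2, 3 with library totals alone, 0 with replicates 1 to 3 only and 11 with a batch term (10.8%, 9.43%, 1.4% and 12.4% of all genes). Torin 1 in Ctu1 iKO gave 13, 2, 1 and 12 in the same order (11.7%, 9.1%, 1.81% and 13.9%), and Ctu1 iKO against control with torin 1 gave 1 with library totals and 0 with replicates 1 to 3 (4.87% and 0.0101%). In transcripts, torin 1 in control gave 8 with DESeq2, 9 with library totals and 1 with all replicates as labelled (20.4%, 13.9% and 9.51%). Torin 1 in Ctu1 iKO gave 6, 4 and 0, and 1 with DESeq2's size factors (16.7%, 9.76%, 0% and 8.16%). Ctu1 iKO against control gave 4 with DESeq2, 0 with no count filter and 9 with all replicates with DMSO (15.1%, 5.02% and 26.4%), and 1 with DESeq2 with torin 1 (11.3%). Translational efficiency gave 1 with DESeq2 (torin 1 in control, 2.38%) and 0 with library totals (torin 1 in Ctu1 iKO, 1.51%). Without 1 replicate, footprint counts ran from 3 to 5 and 2 to 6 (torin 1 in control and Ctu1 iKO) and 0 to 2 (genotypes with torin 1), where 5.67% to 7.48%, 5.35% to 9.35% and 3.04% to 5.77% of all genes changed. Transcript counts ran from 0 to 8 and 0 to 6 for torin 1, were 0 throughout between genotypes with DMSO and 0 to 2 with torin 1 (4.28% to 12.8%, 1.28% to 11.7%, 0% to 5.05% and 0.0104% to 4.21% of all genes), and translational efficiency ran from 0 to 1 (torin 1 in Ctu1 iKO, 1.06% to 1.65%). The smaller fits hold fewer samples, all replicates as labelled include the RNA-seq libraries that go against their labels, and for the rest the cause was not tested. Footprint depth was lowest at 4602092 counts, and whether it limited calls was not tested.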
